A study of Mus musculus with 4 samples.

Results

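The genes described here are 34 genes of the amino acid and unfolded protein stress responses, chosen by name and read on 4 Affymetrix arrays of mouse embryonic stem (ES) cells. They were found as the probe sets annotated to 1 of the 34 symbols alone, and the probe set with the brightest mean signal stood for the gene. All 34 were among the 18193 genes that the array named. Of these, 21 form the ATF4 arm (transcription factors and regulators, stress effectors, amino acid synthesis and amino acid transport) and 13 form the endoplasmic reticulum (ER) arm (chaperones, folding enzymes and other genes of the ER unfolded protein response).

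The study set ES cells that lack Sall4, a zinc finger transcription factor, against heterozygous ES cells, each grown with and without mouse embryonic fibroblast (MEF) feeders. There were 4 groups with 1 array each. These were cells labelled Sall4-null (delta/-, line KO1) on feeders, heterozygous cells (flox/-, line HET18) on feeders, cells labelled null on gelatin without feeders, and heterozygous cells on gelatin without feeders. All of them were E14.1 ES cells that carried a blasticidin-resistance gene behind an internal ribosome entry site, targeted to Oct3/4. All were grown with leukaemia inhibitory factor (LIF) and blasticidin, which keeps cells in which Oct3/4 is active. The medium was GMEM with fetal calf serum, non-essential amino acids, pyruvate and beta-mercaptoethanol in every group. The feeders themselves were blasticidin-resistant. Each genotype was represented by 1 line, so that line and genotype cannot be told apart, and no group had a second culture.

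ATF4 is a transcription factor made when the kinases GCN2, PERK, HRI or PKR phosphorylate the translation factor eIF2alpha, for example when an amino acid is short or when misfolded proteins collect in the ER. It switches on genes that make, take up and charge amino acids, and its protein level is set largely by translation, so that its mRNA is only part of its regulation. The ER unfolded protein response has further branches through ATF6 and IRE1 with XBP1, which switch on chaperones such as BiP (Hspa5). GCN2 senses uncharged tRNA and acts without ER stress.

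Promoters of the members are shown first because the ATF4 arm and the ER arm carry different known control elements. The sequences are from RefSeq (GRCm38.p6) and span 250 bases before to 50 after the annotated start, and were available for 19 of the 21 genes of the ATF4 arm and 12 of the 13 of the ER arm. Both strands were searched for the C/EBP-ATF response element (CARE, TGATGNAAN), bound by ATF4 with a C/EBP partner. The ER stress response elements were ERSE (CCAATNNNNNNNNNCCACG) and ERSE-II (ATTGGNCCACG), and the unfolded protein response element was UPRE (TGACGTGG). ERSE and ERSE-II share the letters CCACG. Members were counted as genes with a match in any of their promoters, and the background as single promoters, so the units differ. CARE was found for 6 of the 19 ATF4 arm genes and 1 of the 12 ER arm genes, against 3.95% of all 32851 promoters. ERSE was found for 6 of the 12 ER arm genes and 0 of the 19 ATF4 arm genes, against 0.119% of all promoters. ERSE-II was found in the Herpud1 promoter, against 0.0365% of all promoters, and UPRE in 0 member promoters, against 0.676% of all. These elements were first described in genes of these same pathways, so the counts are a description and no independent evidence. Windows of 30 bases around the CARE match are printed on the strand of the gene, with the match in capitals. For Slc7a11 the first of its matches is shown. Where the capitals end in CATCA the match lies on the opposite strand.
Nupr1: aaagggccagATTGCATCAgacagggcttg
Trib3: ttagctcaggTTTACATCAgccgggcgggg
Chac1: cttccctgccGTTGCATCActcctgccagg
Vldlr: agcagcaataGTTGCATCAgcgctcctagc
Asns: cccagccacaTGATGAAACttcccgcacgc
Slc7a11: ctcatgtggcTGATGCAAAcctggagaatt
Herpud1: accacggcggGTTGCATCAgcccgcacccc
The ER arm promoters with ERSE are shown in the same way, with the match in capitals. For Hsp90b1, too, the first of its matches is shown. A run that opens with CGTGG is a match on the opposite strand.
Hspa5: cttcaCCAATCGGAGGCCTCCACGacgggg
Dnajc3: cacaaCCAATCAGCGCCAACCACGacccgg
Hsp90b1: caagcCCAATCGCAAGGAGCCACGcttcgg
Pdia6: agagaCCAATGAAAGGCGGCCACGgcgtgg
Calr: caacgCGTGGTCGACCCTCATTGGcccata
Creld2: cttctCGTGGCGAGCCTCAATTGGtccaca
Herpud1, which encodes an ER membrane protein of ER-associated degradation, held both a CARE and an ERSE-II match. The 250 bases before its start (chr8:94386179-94386428, plus strand) are given with both in capitals, beside the same stretch of Chac1 (chr2:119350992-119351241, plus strand), which held CARE alone, and of Hspa5 (chr2:34771840-34772089, plus strand), which held ERSE alone.
Herpud1: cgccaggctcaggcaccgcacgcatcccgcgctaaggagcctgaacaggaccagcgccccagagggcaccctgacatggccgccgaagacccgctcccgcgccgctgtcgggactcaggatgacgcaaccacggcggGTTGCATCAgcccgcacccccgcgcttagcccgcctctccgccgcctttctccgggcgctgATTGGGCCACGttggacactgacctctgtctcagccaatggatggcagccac
Chac1: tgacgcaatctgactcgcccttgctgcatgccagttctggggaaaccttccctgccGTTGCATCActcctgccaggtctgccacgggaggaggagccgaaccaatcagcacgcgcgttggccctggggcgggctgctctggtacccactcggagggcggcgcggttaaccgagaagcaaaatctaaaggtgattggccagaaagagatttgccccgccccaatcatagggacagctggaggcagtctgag
Hspa5: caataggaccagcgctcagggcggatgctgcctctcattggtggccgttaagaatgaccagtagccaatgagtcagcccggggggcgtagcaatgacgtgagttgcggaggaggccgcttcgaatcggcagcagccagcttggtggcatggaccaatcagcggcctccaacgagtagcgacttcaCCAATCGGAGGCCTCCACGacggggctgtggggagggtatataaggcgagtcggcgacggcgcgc

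Values are linear MAS5 signals, scaled by the submitters so that each array had a 2% trimmed mean of 100, with a median signal between 16.1 and 18 over the 4 arrays. Differences are in log2(signal + 4.6), and 12490 genes passed a filter on dim signals and were tested. Of the members, 33 passed, and Slc7a11, which encodes the cystine and glutamate antiporter, did not, with signals of 6.5 and 8.9 on feeders in cells labelled null and heterozygous cells, and 7.5 and 2.9 without feeders. Sall4 itself went against the labels: on its brighter probe set the signals were 1452.4 in cells labelled null and 780.8 in heterozygous cells on feeders, and 1670.5 and 1126.5 without feeders, and the second probe set was also higher in cells labelled null in both pairs. The labels do not give the deleted part of the gene, so it is not known whether these probe sets can check the genotype, and the null arrays are called "labelled null" throughout. Pou5f1 (Oct3/4) ranged from 977 to 1284.2 over the 4 arrays, and the summed signal of 10 ES cell markers was 22508.9 in cells labelled null and 24774.3 in heterozygous cells on feeders, and 18772.6 and 22712.7 without feeders. Fibroblast markers moved with the feeders and with the labelled genotype. The summed signal of 19 of them was 18263.1 in cells labelled null and 13021.8 in heterozygous cells on feeders, and 986.7 and 332.5 without feeders. Without feeders none was listed at 0, and Col1a1 had 36.0 in cells labelled null and 1.5 in heterozygous cells. Summed signals of primitive endoderm markers were 4198.7, 3472.6, 2306.7 and 1647.1, of trophectoderm markers 920.7, 1247.9, 2878.5 and 2713.0, and of macrophage markers 324.5, 332.9, 121.3 and 148.0, each for labelled null on feeders, heterozygous on feeders, labelled null without feeders and heterozygous without feeders. Most of the primitive endoderm sum was Sparc (3119.6, 2379.7, 1303.9 and 836.4 in that order), a matrix gene. Without feeders most of the trophectoderm sum was Krt8 (106.6, 128.1, 932.8 and 847.1) and Krt18 (159.0, 295.5, 1284.2 and 1086.6). Lyz2 (168.3, 141.6, 8.6 and 1.6) made up most of the rise of the macrophage sum with feeders. The endoderm regulators Sox17 (16.5, 34.1, 53.0 and 55.2) and Gata6 (21.1, 30.4, 53.9 and 47.2) were lower on both arrays with feeders. Gata4 and Lama1 were also lower with feeders in both lines, whereas Sparc, Col4a1 and Pdgfra were higher in both. Dab2, Amn and Foxa2 were lower with feeders in cells labelled null and higher in heterozygous cells. The median feeder difference of the list was -0.50 in cells labelled null and 0.37 in heterozygous cells. On feeders 7 of 10 tested markers of that list were lower in cells labelled null, and without feeders 5. Over all tested genes the shares were 48.8% and 49.6%. The part of these cell types in the results below was not tested. Because whole cultures were measured, fewer cells of a type and less RNA per cell cannot be told apart.

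The first comparison was between cells labelled null and heterozygous cells. On feeders the ATF4 arm had lower signals in cells labelled null for 18 of its 20 tested genes, with a median log2 difference of -0.55, whereas the ER arm had lower signals for 5 of 13, with a median of 0.11. Over all tested genes, 48.8% were lower in this pair and the median was 0.01. Without feeders the ATF4 arm was lower for 13 of 20 genes, with a median of -0.09, and the ER arm for 10 of 13, with a median of -0.09, against 49.6% of all tested genes. The medians of the roles in the ATF4 arm on feeders were -0.47 for factors and regulators, -0.55 for effectors, -0.68 for amino acid synthesis and -0.53 for transport. Without feeders the same medians were 0.10, -0.22, -0.26 and -0.53, so that transport was the role with a similar median in both pairs. Its single genes differed between the pairs. From the pair without feeders to that on feeders, Slc7a3 went from -2.33 to -1.29 and Slc7a5 from -0.93 to -0.36. Slc7a1 went from 0.30 to -0.55 and Slc3a2 from -0.14 to -0.52. The summed signal of the ATF4 arm was 9052 in cells labelled null and 13280.6 in heterozygous cells on feeders, and 6630.6 and 7655.9 without feeders. For the ER arm the sums were 9851.6 and 9204.3 on feeders, and 9652.7 and 10725.5 without feeders. These linear sums weigh the brightest genes most, which were Asns and Psat1 in the ATF4 arm and Hspa5 and Hsp90b1 in the ER arm. Fitted over both pairs, the median genotype difference was -0.27 in the ATF4 arm and 0.05 in the ER arm, against 0.01 over all tested genes. Of the fibroblast markers, 18 of 19 were higher in cells labelled null on feeders, with a median of 0.50, and the median without feeders was 1.33. Of the ES cell markers, 6 of 10 were lower in cells labelled null on feeders and 9 of 10 without. Nanog, Zfp42, Esrrb, Utf1 and Fbxo15 were lower at an unadjusted limma p under 0.05, against 6.49% of all tested genes. At the limma adjusted p, 0 of 10 were lower, against 0.032% of all, and 0 were higher, against 0%. The part of these shifts in the ATF4 arm difference was not tested.

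With 1 array per group there was no replicate error. The additive limma model had a genotype and a feeder term. It measures an effect against a variance drawn from 2 sources. These are the difference between its 2 estimates (1 residual degree of freedom) and a trend over all tested genes (4.70 prior degrees of freedom). The SE and p of a gene therefore rest largely on other genes of similar signal. In this fit 0 of the 33 tested members passed a Benjamini-Hochberg adjusted p of 0.05 for genotype, against 0% of all tested genes that were higher in cells labelled null and 0.032% that were lower. At an unadjusted p under 0.05, 7 of 20 ATF4 arm genes (Trib3, Chac1, Sesn2, Psat1, Psph, Slc7a5 and Slc7a3) and 1 of 13 ER arm genes (Xbp1) were lower, against 6.49% of all tested genes. Ddit3 was higher at that threshold, against 5.8% of all. By size alone, at least 1.5-fold lower in cells labelled null on feeders held for 7 ATF4 arm genes (Trib3, Chac1, Sesn2, Asns, Psat1, Psph and Slc7a3) and 0 ER arm genes, against 7.32% of all tested genes. At least 1.5-fold higher on feeders held for Ddit3 and Pdia4, against 6.23% of all. Without feeders the same size was reached in the lower direction by Trib3, Chac1, Slc7a5, Slc7a3 and Xbp1, against 9.25% of all tested genes, and in the higher direction by Cebpb, against 11.4%. Trib3, Chac1 and Slc7a3 were at least 1.5-fold lower in both pairs, against 2.72% of all tested genes, and 0 members were at least 1.5-fold higher in both, against 1.76%.

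**Figure D1:**
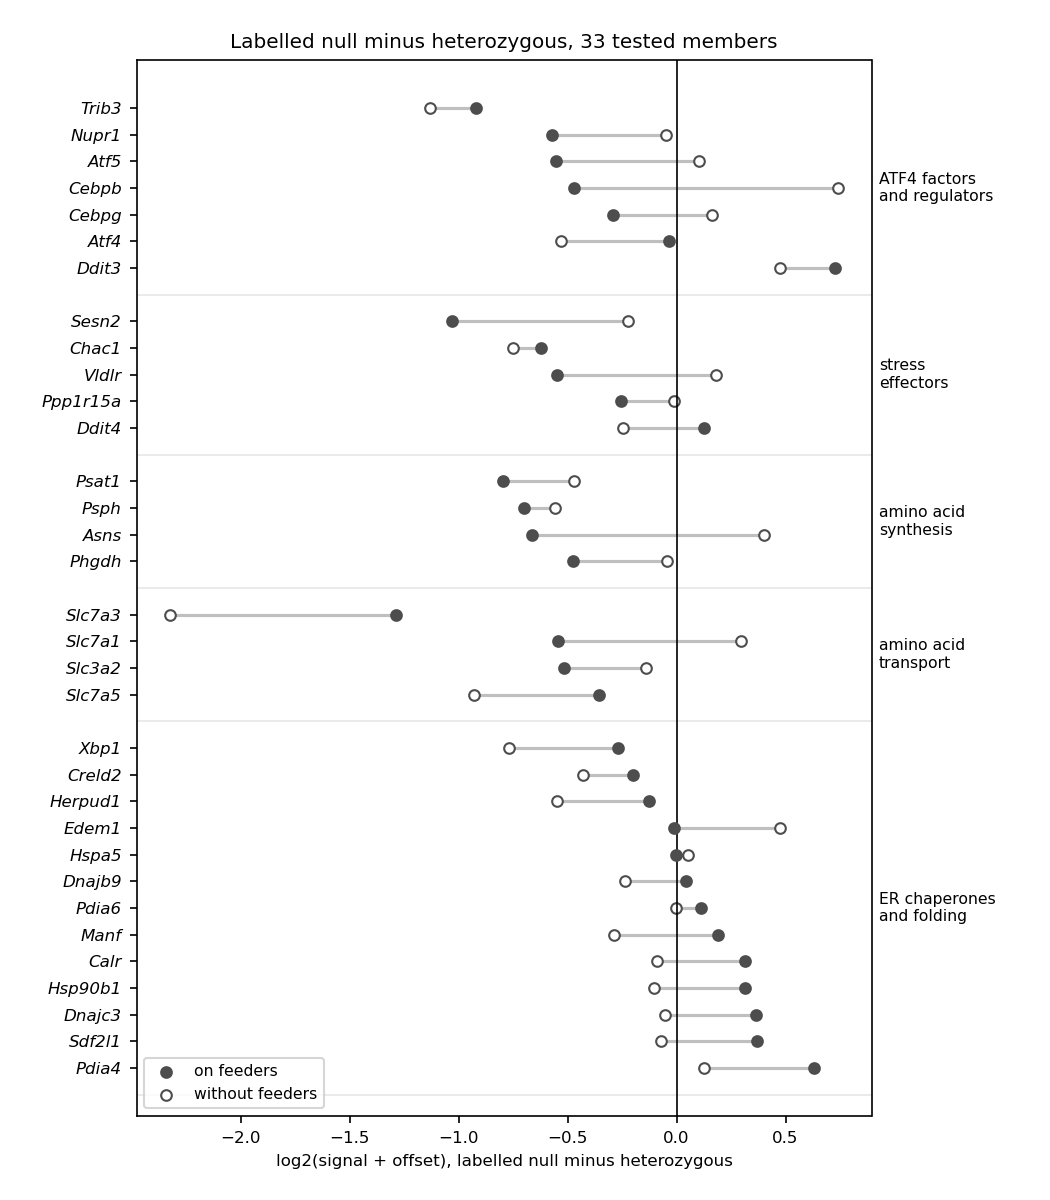
Differences in log2(signal + 4.6) for the 33 tested members, as cells labelled null minus heterozygous cells, with filled points for the pair on feeders and open points for the pair without feeders, each from 1 array against 1 array. Most points of the ATF4 arm on feeders lie left of 0 (18 of 20), whereas 5 of 13 ER arm points do.

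Among the factors, Atf4 had signals of 968.7 in cells labelled null and 993.1 in heterozygous cells on feeders, and 416.6 and 604.4 without feeders. Its arrays on feeders were nearly equal and its fitted genotype difference was -0.28 (SE 0.16, limma adjusted p = 0.531). The probe sets of Atf4 disagreed in sign on feeders. Trib3, a pseudokinase that is a target of ATF4 and dampens it, had signals of 123.5 in cells labelled null and 238 in heterozygous cells on feeders, and 33.6 and 79 without feeders. Both pairs were lower in cells labelled null, by log2 differences of -0.92 and -1.13, and the fitted difference was -1.03 (SE 0.19, limma adjusted p = 0.169). Ddit3 (CHOP), the C/EBP family factor tied to stress-induced cell death, ran the other way. Its signals were 188.9 in cells labelled null and 112.3 in heterozygous cells on feeders, and 87.2 and 61.4 without feeders, so both arrays labelled null were higher than the heterozygous array of their pair. The fitted difference was 0.60 (SE 0.19, limma adjusted p = 0.320).

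Among the other factors, Cebpb, a partner of ATF4 on the CARE, had signals of 187.4 in cells labelled null and 261.3 in heterozygous cells on feeders, and 98.7 and 57.2 without feeders. It was lower in cells labelled null on feeders and higher without, with log2 differences of -0.47 and 0.74. Atf5, an ATF4-related factor under similar translational control, had 108.1 and 161 on feeders and 41.1 and 37.9 without, in cells labelled null and heterozygous cells. For Cebpg, another dimer partner of ATF4, the differences were -0.29 on feeders and 0.16 without, and its probe sets disagreed in sign in both pairs. Nupr1, a small chromatin protein induced by stress, had 320.6 in cells labelled null and 479.1 in heterozygous cells on feeders, and 65.1 and 67.5 without. Its difference of -0.57 on feeders stood beside one of -0.05 without feeders.

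Among the effectors, Chac1, an enzyme that degrades glutathione and one of the genes with CARE in the sequences above, had signals of 145.8 in cells labelled null and 226.7 in heterozygous cells on feeders, and 22.3 and 40.7 without feeders. The log2 differences were -0.62 and -0.75, and the fitted value was -0.69 (SE 0.19, limma adjusted p = 0.285). Sesn2, a leucine sensor that restrains mTORC1, had 60.3 in cells labelled null and 127.8 in heterozygous cells on feeders, and 93.9 and 110.5 without. Its lowest array was the one labelled null on feeders, and its differences were -1.03 and -0.22. Without feeders its second probe set had the opposite sign, with a difference of 0.26. Vldlr, a lipoprotein receptor, had 167.1 and 246.9 on feeders and 20.8 and 17.8 without, in cells labelled null and heterozygous cells, and so changed order between the pairs. Ddit4, an inhibitor of mTORC1, differed by 0.13 on feeders and -0.25 without. For Ppp1r15a (GADD34), the phosphatase subunit that reverses eIF2alpha phosphorylation, the differences were -0.25 and -0.01.

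All 4 amino acid synthesis genes had lower signals in cells labelled null on feeders. Psat1, the aminotransferase of serine synthesis, had 1226.1 in cells labelled null and 2130.9 in heterozygous cells on feeders, and 853.9 and 1185.3 without feeders. Psph, the last enzyme of that pathway, had 339.6 and 555.3 on feeders, and 202 and 299.9 without, in the same order. Both genes were lower in cells labelled null in both pairs, and the fitted differences were -0.63 for each (SE 0.12 and 0.15, limma adjusted p = 0.169 and 0.229). Phgdh, the first enzyme, had 526.9 in cells labelled null and 734.6 in heterozygous cells on feeders, and 520.5 and 537.2 without. Here 3 arrays were close to each other and the heterozygous array on feeders stood above them. Asns, the asparagine synthetase and a classical ATF4 target, had 1944.1 in cells labelled null and 3077.6 in heterozygous cells on feeders, and 2083.5 and 1577.8 without. It was lower in cells labelled null on feeders and higher without, by log2 differences of -0.66 and 0.40, and its fitted difference was -0.13 (SE 0.24, limma adjusted p = 0.865).

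Slc7a3 had the largest fitted genotype difference among the 33 tested members. It encodes a cationic amino acid transporter that carries arginine and lysine. Its signals were 353.6 in cells labelled null and 870.4 in heterozygous cells on feeders, and 181.3 and 927 without feeders. Both heterozygous arrays were above both arrays labelled null. These were 2.44-fold and 5.01-fold differences on the scale with the offset, and the fitted log2 difference was -1.81 (SE 0.25, limma adjusted p = 0.13). Slc7a1, the related transporter of the same substrates, had 518.2 in cells labelled null and 758.8 in heterozygous cells on feeders, and 475.7 and 386.7 without, which changed order between the pairs. Slc7a5, the catalytic chain of the large neutral amino acid transporter LAT1, had 197 and 253.5 on feeders, and 139.9 and 270.9 without, in cells labelled null and heterozygous cells. Its fitted difference was -0.64 (SE 0.20, limma adjusted p = 0.317). Slc3a2, the heavy chain that partners Slc7a5 and Slc7a11, differed by -0.52 on feeders and -0.14 without.

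**Figure D2:**
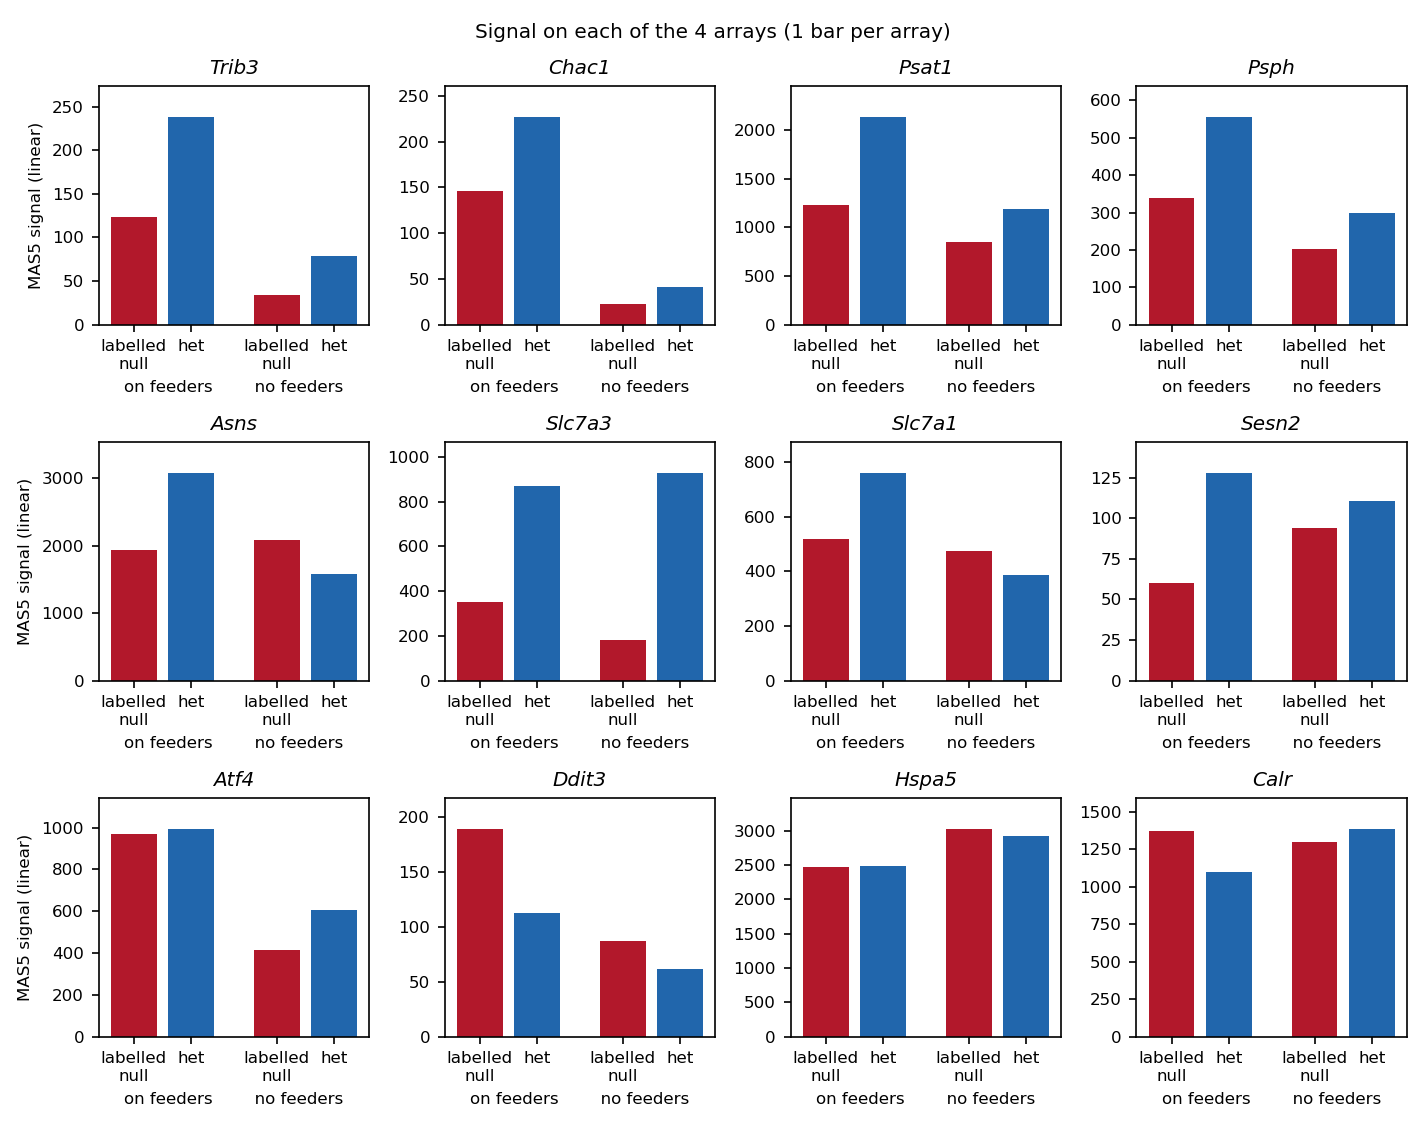
Linear MAS5 signals of 12 members on each of the 4 arrays, with 1 bar per array, the array labelled null left of the heterozygous array in each pair and the pair on feeders left of the pair without feeders. Slc7a3 is lower in both arrays labelled null (353.6 and 181.3) than in both heterozygous arrays (870.4 and 927), whereas Hspa5 is close to equal within each pair.

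In the ER arm, Hspa5 (BiP), the main ER chaperone and a gene with ERSE in the sequences above, had 2470.8 in cells labelled null and 2478.9 in heterozygous cells on feeders, and 3021.1 and 2915.2 without feeders. The pairs differed by -0.005 and 0.05, and its probe sets disagreed in sign. Xbp1, the factor whose mRNA is spliced by IRE1, had 1012.8 in cells labelled null and 1223.1 in heterozygous cells on feeders, and 885.4 and 1512.3 without, with a fitted difference of -0.52 (SE 0.14, limma adjusted p = 0.279). These signals do not separate spliced from unspliced Xbp1. Creld2, an ER stress-induced secreted protein, and Herpud1 were the other ER arm genes with lower signals in cells labelled null in both pairs, with differences of -0.20 and -0.13 on feeders, and -0.43 and -0.55 without.

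Among the other ER arm genes most differences on feeders were positive and most without feeders were negative. Calr, the lectin chaperone that binds calcium, had 1369 in cells labelled null and 1100.6 in heterozygous cells on feeders, and 1297.9 and 1383.6 without. Hsp90b1 (GRP94), the ER member of the HSP90 family, had 1906.8 and 1532 on feeders, and 1495.3 and 1609.2 without, in the same order. Pdia4, a disulfide isomerase, had 61.4 in cells labelled null and 38 in heterozygous cells on feeders, and 123.7 and 112.9 without, which made it the ER arm gene with the largest difference on feeders (0.63). Sdf2l1, Dnajc3, Manf, Pdia6 and Dnajb9, which are cofactors of BiP or folding enzymes, had differences of 0.37, 0.36, 0.19, 0.11 and 0.04 on feeders, and -0.07, -0.06, -0.29, -0.003 and -0.24 without. Edem1, which directs misfolded glycoproteins to degradation, differed by -0.01 on feeders and 0.47 without. Where a gene had several probe sets above the filter, they had 1 sign on feeders for 9 of 11 genes in the ATF4 arm and 4 of 8 in the ER arm, and without feeders for 8 of 11 and 5 of 8. The signs disagreed on feeders for Atf4, Cebpg, Dnajc3, Edem1, Hspa5 and Xbp1, and without feeders for Cebpg, Phgdh, Sesn2, Dnajc3, Hsp90b1 and Hspa5.

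The difference between the pairs (the genotype difference on feeders minus that without) leaves no degree of freedom for a test and is given as a value. It was negative for 13 of 20 genes of the ATF4 arm, with a median of -0.35, and for 2 of 13 genes of the ER arm, with a median of 0.42, against 50.3% of all tested genes. The median over the ATF4 arm was -0.19 when all probe sets of a gene were averaged. In the ATF4 arm it ran from -1.21 for Cebpb to 1.04 for Slc7a3. All 4 synthesis genes were negative, with Asns at -1.06 and Psph at -0.14. In the ER arm the negative values were those of Edem1 and Hspa5.

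Genes of the same pathways that are not members were read from lists by the same rule. Of 12 aminoacyl-tRNA synthetases known as ATF4 targets, 12 had lower signals in cells labelled null on feeders and 11 without, against 48.8% and 49.6% of all tested genes, with median log2 differences of -0.54 and -0.31. In limma 0 of these 12 passed the adjusted p for genotype, and 9 were lower at an unadjusted p under 0.05, against 6.49% of all. Nars, Cars, Aars and Lars, which charge asparagine, cysteine, alanine and leucine tRNA, had fitted differences of -0.50, -0.68, -0.54 and -0.45. Cars had signals of 385 in cells labelled null and 753.4 in heterozygous cells on feeders, and 239.9 and 316.2 without. Of 7 synthetases not known as ATF4 targets, 6 were also lower on feeders and 5 without, with medians of -0.15 and -0.19, and whether the 2 synthetase lists differ was not tested. Vars, Kars and Farsa in that list had fitted differences of -0.42, -0.23 and -0.18. Hars, the histidine enzyme, was higher in cells labelled null, with 1098.1 in cells labelled null and 867.9 in heterozygous cells on feeders, and 1716.3 and 1369.3 without (fitted difference 0.33, limma adjusted p = 0.295).

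Of 18 further tested targets of ATF4, 17 were lower in cells labelled null on feeders and 16 without, against 48.8% and 49.6% of all tested genes, with medians of -0.40 and -0.44. Of these, 0 passed the adjusted p for genotype and 8 were lower at an unadjusted p under 0.05, against 6.49% of all. Gpt2, the mitochondrial alanine aminotransferase, had 100.1 in cells labelled null and 239.3 in heterozygous cells on feeders, and 41.4 and 86.5 without. Its fitted difference was -1.10 (SE 0.19, limma adjusted p = 0.156). Pck2, the mitochondrial phosphoenolpyruvate carboxykinase, and Slc1a5, a glutamine transporter, had fitted differences of -0.92 and -0.89. Atf3, a stress-induced factor, had 19.7 in cells labelled null and 110.8 in heterozygous cells on feeders, and 56.8 and 41.2 without, so its order turned between the pairs. The 12 tested sensors and regulators upstream had medians of -0.07 on feeders and -0.10 without. Eif2ak4 (GCN2) and its activator Gcn1 had fitted differences of -0.50 and -0.33, the eIF2alpha phosphatase subunit Ppp1r15b -0.27 and the protease Mbtps2, which cleaves ATF6, -0.21. Among 27 further ER folding and degradation genes the medians were 0.13 and 0.01. The largest fitted differences there were -0.80 for Fkbp11, -0.41 for Ero1b, -0.37 for Ero1a and 0.34 for Kdelr2.

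**Figure D3:**
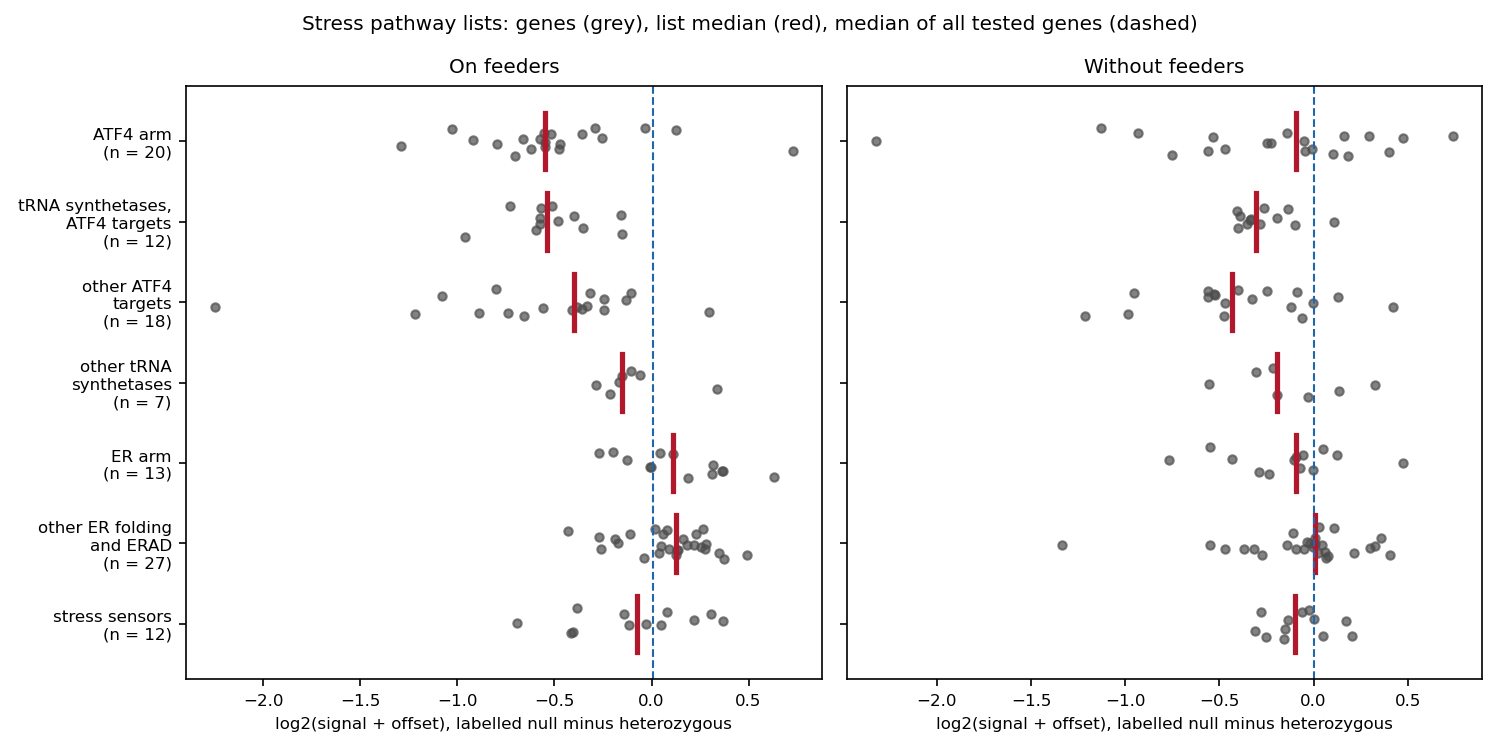
Log2 differences of cells labelled null minus heterozygous cells for the tested genes of each list (grey points), with the list median (red bar) and the median of all 12490 tested genes (dashed line), on feeders in the left panel and without feeders in the right panel. On feeders the medians of the ATF4 arm (-0.55) and of the ATF4-target synthetases (-0.54) lie left of those of the ER arm (0.11) and the other ER genes (0.13).

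The second comparison was between cultures with and without feeders. With feeders 8 of 20 ATF4 arm genes (Atf4, Atf5, Nupr1, Trib3, Chac1, Vldlr, Psat1 and Psph) and 1 of 13 ER arm genes (Herpud1) rose at a limma adjusted p under 0.05, against 3.79% of all tested genes. Pdia4 fell, against 0.825% of all. At least 1.5-fold higher with feeders in both genotypes held for 10 genes of the ATF4 arm and for Herpud1 in the ER arm, against 8.33% of all tested genes, and at least 1.5-fold lower held for Pdia4, against 2.28%. The median fitted difference was 0.74 in the ATF4 arm, -0.08 in the ER arm and 0.03 over all tested genes. The ATF4 arm median was 0.82 in cells labelled null and 0.83 in heterozygous cells. The fibroblast marker sum of 18263.1 and 13021.8 with feeders, against 986.7 and 332.5 without, moved with this contrast. Of the 19 fibroblast markers, 18 rose at a limma adjusted p under 0.05, against 3.79% of all tested genes. Twist1 was also higher with feeders in both lines but did not pass. Because feeder RNA was on the arrays, a higher signal in the ES cells and RNA from the feeders cannot be told apart.

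Vldlr, read by its brightest probe set, had 167.1 and 246.9 with feeders, against 20.8 and 17.8 without, in cells labelled null and heterozygous cells, and a fitted log2 difference of 3.12 (SE 0.25, limma adjusted p = 0.0042). On the mean of its 6 probe sets the difference was 1.63 and was not called (limma adjusted p = 0.0521). That was below Nupr1 and Chac1 at 2.46 and 2.42 on the same measure, where Chac1 has 1 probe set. Several of the Vldlr probe sets lay below the filter. Its other probe set above the filter had differences of 1.70 in cells labelled null and 2.26 in heterozygous cells. Nupr1 and Chac1 rose by 2.48 (SE 0.20) and 2.42 (SE 0.19), each with a limma adjusted p of 0.0042. Each of these 3 genes had both arrays with feeders above both without. Trib3 rose by 1.64 (SE 0.19, limma adjusted p = 0.0115) and Atf5 by 1.63 (SE 0.24, limma adjusted p = 0.0231). Atf4 itself had 968.7 and 993.1 with feeders, against 416.6 and 604.4 without, and rose by 0.96 (SE 0.16, limma adjusted p = 0.0328). On the mean of its probe sets the Atf4 difference was also 0.96 but was not called (limma adjusted p = 0.0652). Herpud1 had 166.4 and 182.2 with feeders, against 40.6 and 61.5 without, and rose by 1.71 (SE 0.21, limma adjusted p = 0.0127).

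Psat1 and Psph rose by 0.68 (SE 0.12) and 0.81 (SE 0.15), with limma adjusted p of 0.0379 and 0.0458. On the mean of its probe sets Psat1 rose by 0.64 and was not called (limma adjusted p = 0.0508). Pdia4 had 61.4 and 38 with feeders, against 123.7 and 112.9 without, and fell by 1.21 (SE 0.22, limma adjusted p = 0.0432). On the mean of its probe sets, of which the second lay below the filter, the Pdia4 difference was -0.65 and was not called (limma adjusted p = 0.271). Ddit3, Ddit4, Cebpb and Cebpg had differences of 0.95, 0.80, 1.5 and 0.48 with limma adjusted p of 0.0539, 0.0543, 0.0580 and 0.224, and did not pass. The transporters Slc7a1, Slc7a3, Slc3a2 and Slc7a5 had differences of 0.54, 0.43, 0.34 and 0.19, and none passed. Asns stood apart between the lines, at -0.10 in cells labelled null and 0.96 in heterozygous cells. Sesn2, Ppp1r15a and Phgdh had fitted differences of -0.20, 0.14 and 0.23.

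In the ER arm, the chaperones Hspa5, Hsp90b1 and Calr had feeder differences of -0.26, 0.14 and -0.13, and did not pass. The 8 other genes that did not pass lay between -0.71 for Sdf2l1 and 0.34 for Edem1. Among the genes that are not members, the further ATF4 targets held 9 of 18 that rose with feeders, against 3.79% of all tested genes, with Aldh1l2 at 2.25 and Vegfa at 1.63 (limma adjusted p = 0.0100 and 0.0136). In the ATF4-target synthetases 0 of 12 passed for feeders and 10 were higher at an unadjusted p under 0.05, against 14% of all tested genes, with Cars at 0.96 and Mars1 at 0.66. Hars fell by 0.65 (limma adjusted p = 0.0253). Farsa differed by -0.33. Among the upstream sensors Impact and Mbtps2 differed by -0.58 and 0.56 and did not pass. Of the 27 further ER genes, 3 rose at a limma adjusted p under 0.05, against 3.79% of all tested genes, and 0 fell, against 0.825%. These were Ero1a, Pdia5 and Kdelr3, a receptor that returns ER proteins, at 0.96, 1.07 and 2.28. At an unadjusted p under 0.05, 7 were higher, against 14% of all, and 3 lower (Pdia3, Hyou1 and Serp1), against 7.77%. The median of that list was 0.10.

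**Figure D4:**
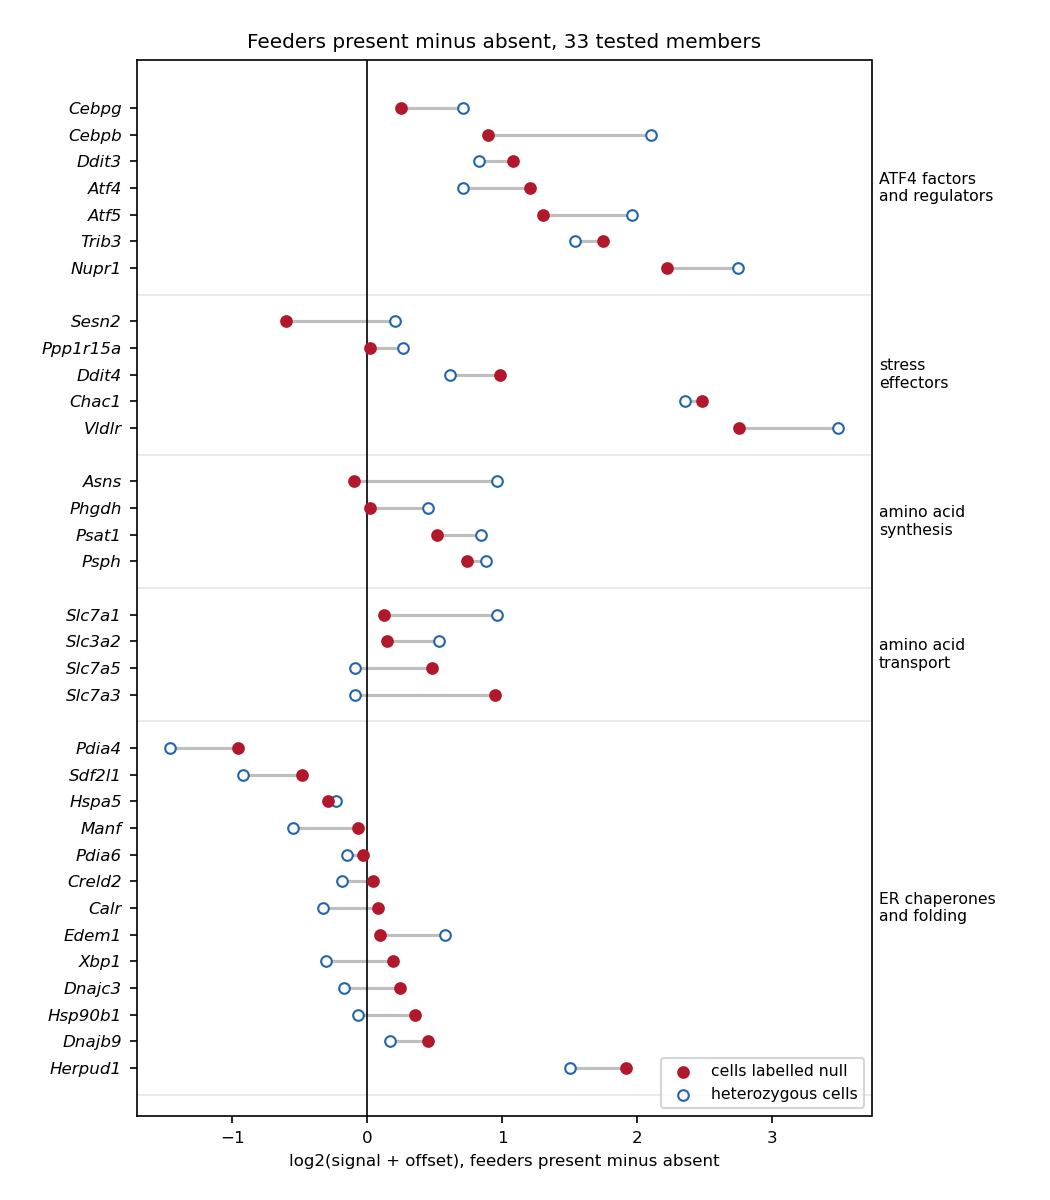
Differences in log2(signal + 4.6) for the 33 tested members, as feeders present minus absent, with filled points for cells labelled null and open points for heterozygous cells, each from 1 array against 1 array. On the brightest probe set of each gene, Vldlr, Nupr1 and Chac1 lie farthest to the right in both lines, and Pdia4 farthest to the left.

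The number of feeder calls depended on the arrays and the model. With the feeder term alone, 3 ATF4 arm genes were called over all 4 arrays, and the number was 5 without the array labelled null without feeders, 4 without the heterozygous array without feeders, and 0 without the array labelled null with feeders or the heterozygous array with feeders. With no filter on dim signals 4 of the ATF4 arm genes were called, and 3 with no variance trend.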

How the data were processed

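Total RNA of 4 ES cell cultures was hybridised to 1 Affymetrix array each. The deposited values are linear array intensities (MAS5 signals) for 45101 probe sets, made with MAS5, per the submitters' processing notes, which give no version. No detection calls were used here. The 2% trimmed mean was 100 on each array, and no further scaling was applied.

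Control probe sets (64), probe sets with several symbols (932) and those not listed (9160) were left out. Signals were read as log2(signal + 4.6), where 4.6 is the 25th percentile of all signals. The offset draws the differences of weak signals towards 0. The brightest probe set stood for each gene. Genes whose mean lay below the 40th percentile over probe sets (a signal of 9.45) were left out. limma 3.58.1 in R 4.3.3 (lmFit, eBayes with a variance trend) fitted a genotype and a feeder term on all 12490 genes with 1 residual and 4.70 prior degrees of freedom. Tests were two-sided with Benjamini-Hochberg adjustment at 0.05. The number of arrays limits the precision. Python 3.11.15 and pandas 2.3.3 were used for counts and motifs.

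Members, lists (tRNA synthetases, other ATF4 targets, sensors, other ER genes, markers of ES cells, fibroblasts, primitive endoderm, trophectoderm and macrophages) and tests were chosen with earlier results of these data known. All members were named, and from each other pathway list up to 4 tested genes with the largest fitted genotype difference and up to 2 with the largest feeder difference. Alternatives were other offsets, filters, scalings, probe set rules, variance and model terms, a higher fold threshold, and leaving out each array.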

Additional observations from a re-analysis of the deposited data

Results flagged for a closer look

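For 16 of the 33 tested members the difference between cells labelled null and heterozygous cells had opposite signs on feeders and without feeders. Each pair held 1 array a side, so the difference between the pairs was not tested. Given as the log2 difference on feeders minus that without, 8 genes were lower in the array labelled null on feeders and higher without. These were Cebpb at -1.21, Asns at -1.06, Slc7a1 at -0.84, Vldlr at -0.73, Atf5 at -0.66, Edem1 at -0.48, Cebpg at -0.46 and Hspa5 at -0.056. The other 8 were higher in the array labelled null on feeders and lower without. These were Manf at 0.48, Sdf2l1 at 0.44, Dnajc3 at 0.42, Hsp90b1 at 0.42, Calr at 0.41, Ddit4 at 0.37, Dnajb9 at 0.28 and Pdia6 at 0.12.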

How the results depend on the processing

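No replicates could be paired, because the labels give no replicate numbers and each group had 1 array. Through its feeder term the additive fit compared the genotypes within each feeder condition. With an additive fit, 4 genes were changed by genotype, none of them a member. That count was 0 with no filter, with a filter at the 60th percentile, with no variance trend and with 1 factor in the model, 7 with quantile normalization and 7 with median centring, and 0 to 0 when each array was left out. The 560 genes past the size rule for genotype became 351 with the median signal as offset, 992 with no filter, 331 with the stricter filter and 145 at 2-fold. Median centring split them 175 higher to 415 lower, against 220 to 340. By feeders 576 genes changed, and 269 with no filter, 268 with the filter at the 60th percentile, 382 with the mean of probe sets, 180 with no variance trend, 231 with 1 factor, and 23 to 534 with an array left out. The 1326 genes past the size rule for feeders became 860 with the stricter filter and 568 at 2-fold.

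The 8 ATF4 arm genes called for feeders were 4 with no filter or with the filter at the 60th percentile, 5 with the mean of probe sets, 3 with no variance trend or with 1 factor, and 0 to 5 with an array left out. The 2 called in the ER arm were 1 with the offset of 1, with no filter, with the filter at the 60th percentile, with the mean of probe sets and with 1 factor, 0 with no variance trend, and 0 to 1 with an array left out. The 18 ATF4 arm genes lower in cells labelled null on feeders were between 16 and 19 under the 7 alternatives that bear on that count, and the 5 of the ER arm were 3 with the mean of probe sets. With that mean the ER arm median without feeders was -0.21 and the median difference between the pairs in the ATF4 arm was -0.19.

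An array could be left out only in a model with 1 factor, which by construction mixes the feeder effect into the genotype difference. The ATF4 arm median then ran from -0.71 to 0.16 and that of the ER arm from -0.054 to 0.14. Genotype differences that changed sign ran over the ranges Asns -0.61 to 0.35, Atf4 -0.89 to 0.32, Atf5 -1.21 to 0.76, Calr -0.054 to 0.28, Cebpb -0.92 to 1.19, Cebpg -0.42 to 0.29, Chac1 -1.93 to 0.56, Ddit4 -0.55 to 0.43, Dnajb9 -0.32 to 0.13, Edem1 -0.058 to 0.52, Herpud1 -1.30 to 0.62, Hsp90b1 -0.070 to 0.28, Hspa5 -0.12 to 0.17, Manf -0.32 to 0.22, Nupr1 -1.68 to 1.06, Pdia4 -0.35 to 1.11, Pdia6 -0.020 to 0.13, Sdf2l1 -0.31 to 0.61, Slc7a1 -0.61 to 0.36 and Vldlr -1.93 to 1.56. Feeder differences that did so ran over Calr -0.28 to 0.031, Creld2 -0.29 to 0.14, Dnajc3 -0.15 to 0.22, Hsp90b1 -0.018 to 0.30, Phgdh -0.0051 to 0.47, Sesn2 -0.71 to 0.31, Slc7a3 -0.73 to 1.59, Slc7a5 -0.27 to 0.66 and Xbp1 -0.44 to 0.33. Under the other alternatives the genotype difference turned to 0.025 for Cebpg, 0.049 for Vldlr and -0.053 for Pdia6 with the mean of probe sets, to -0.015 for Hspa5 with quantile normalization, and to -0.037 for Hspa5 and -0.0053 for Pdia6 with median centring. The feeder difference turned to 0.11 for Xbp1 and -0.20 for Dnajc3 with the mean of probe sets, and to -0.0072 and -0.033 for Dnajc3 with quantile normalization and median centring. The cause was not tested. Of all member values under these alternatives, 742 kept their direction and side of the threshold, 61 lost the call, 1 gained it and 54 changed sign. Dim signals limit Slc7a11, which was not tested.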
